A study of Homo sapiens with 9 samples.

Results

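The clustered histone genes encode the core histones H2A, H2B, H3 and H4 and the linker histone H1, and lie in the gene clusters HIST1 to HIST4. They were chosen by name alone, as every gene of the count table whose older symbol begins with HIST1H, HIST2H, HIST3H or HIST4H. This gave 70 of 27671 genes, of which 6 encode H1, 17 encode H2A, 18 encode H2B, 14 encode H3 and 15 encode H4. HIST1 on chromosome 6 holds 55 of them, HIST2 on chromosome 1 holds 11, HIST3 on chromosome 1 holds 3 and HIST4 on chromosome 12 holds 1. RNA was sequenced from A498, a human cell line derived from a kidney carcinoma and used as a model of ccRCC, the clear cell form. All 9 libraries came from cells infected with a lentiviral pLKO.1 vector and kept under puromycin, and the groups differed in the short hairpin RNA (shRNA) the vector carried. The hairpin was a control in shControl, was directed against BMAL1 in shBMAL1 and was directed against ARNT in shARNT, with 3 biological replicates per group. ARNT dimerizes with the HIFα proteins of the hypoxia response, whereas BMAL1 dimerizes with CLOCK to drive circadian transcription, and the study compared their contributions to gene expression driven by HIF2α. Each comparison is of selected cell populations, and separate hairpins against the same target were not compared here.

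Most clustered histone genes are transcribed in S phase, when new DNA is packed into nucleosomes. Their mRNAs normally end in a conserved stem-loop in place of a poly(A) tail, and this stem-loop is bound by the protein SLBP. Several of the genes can also give a polyadenylated transcript, which uses a later poly(A) signal and is often seen in cells that no longer divide. The libraries were stranded mRNA libraries, so the values describe the histone transcripts that such a library retains. How much RNA of each gene ended in the stem-loop was not measured.

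The stem-loop was sought in the reference sequence, because it marks the mRNAs that need no tail. The histone stem-loop consensus, on the coding strand, began within 100 bases after the stop codon in 55 of the 67 members with a gene model (82.1%), against 1 of 19613 other coding genes (0.0051%). The members shown are those on which the later comparisons turn, each as 30 bases of the GRCh37 genome, read 5′ to 3′ on the strand of the gene, with the stem-loop in capitals.
HIST1H1C, chr6:26055965-26055994, minus strand: cccaaaaGGCTCTTTTCAGAGCCaccactg
HIST1H2AC, chr6:26124890-26124919, plus strand: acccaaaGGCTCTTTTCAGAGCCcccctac
HIST2H2BF, chr1:149783433-149783462, minus strand: ccccaaaGGCTCTTTTCAGAGCCacttcag
HIST2H3D, chr1:149784776-149784805, minus strand: atctaaaGGCTCTTTTCAGAGCCactgccg
HIST2H4A, chr1:149804589-149804618, plus strand: tcccaaaGGCCCTTTTTAGGGCCgaccact
HIST1H4H, chr6:26285352-26285381, minus strand: aaccaaaGGCCCTTTTCAGGGCCgcccact
All 6 of these sites lie after the stop codon, from 28 bases after it in HIST1H1C and HIST2H3D to 44 bases in HIST1H2AC. The consensus was not matched in this window in 5 tested members, HIST1H2BC, HIST1H2BD, HIST1H2BJ, HIST1H2BK and HIST1H3E. In HIST1H2BD a poly(A) signal, AATAAA, starts 65 bases after the stop codon and is shown in capitals with its surroundings.
HIST1H2BD, chr6:26158831-26158860, plus strand: acgcatgttttcAATAAAtgagttgtaatc

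The targeted transcripts were examined first. ARNT stood at 1603, 1667 and 1738 counts in the shControl libraries and at 369, 361 and 395 in shARNT. It fell by 2.41 on the log2 scale (SE 0.07, adjusted p = 1.35e-17). ARNTL, the older symbol of BMAL1, stood at 556, 524 and 536 counts in shControl and at 185, 191 and 140 in shBMAL1. The change there was -1.70 on the same scale (SE 0.10, adjusted p = 1.94e-11). All adjusted p come from the quasi-likelihood test of edgeR with Benjamini-Hochberg adjustment over 15551 genes, and a gene was called at an adjusted p under 0.1. ARNT was also lower in shBMAL1 (-0.65), ARNTL was higher in shARNT (0.55), and EPAS1, which encodes HIF2α, fell by 2.22 in shARNT and by 0.57 in shBMAL1 on the log2 scale. Totals ran from 35269851 to 36099075 counts per library. By counting error alone, a count of 0 allows an upper limit of 3 counts. This limit corresponded to 0.0756 to 0.0911 CPM, that is counts per 1000000 of the scaled library size. Of 9 renal epithelial markers, all 9 were tested and their summed level ran in shControl from 8169 to 8215 CPM, against 6058 to 6538 CPM for shBMAL1 and 2262 to 2429 CPM for shARNT. Gene by gene, 7 were lower in each depletion (77.8%, against 41.3% of all genes in shARNT and 31.5% in shBMAL1) and 1 was higher in each. The median log2 fold change was -0.75 in shARNT (range -2.88 to 1.48) and -0.43 in shBMAL1 (range -0.54 to 0.18). Of 10 markers of leukocytes, endothelium, hepatocytes and muscle, 6 had too few counts to test. The summed level of the 10 ran in shControl from 1795 to 1914 CPM, against 1761 to 1872 CPM for shBMAL1 and 138 to 151 CPM for shARNT. Nearly all of it was CD68, a lysosomal protein best known from macrophages, at a mean of 1865 CPM in shControl and 142 CPM in shARNT. CD3E of T cells had no counts in any library. Their part in the results on histone genes was not tested.

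A few genes carried most of the histone reads. HIST1H2AC held 26.4% of all member counts, HIST1H1C 22.1% and HIST1H2BK 21.4%, and with HIST1H2BD, HIST1H4H, HIST2H2AA3, HIST2H2AA4 and HIST1H2BC the 8 most abundant genes held 89.9%. Per length, as CPM per kb of coding sequence averaged over the 9 libraries, HIST1H2AC was also first at 245, followed by HIST1H2BK at 199 and HIST1H1C at 121. Of the 70 genes, 64 had a count in at least 1 library and 35 passed the filter on low counts and were tested. Among these, 24 reached the filter's minimum of 0.282 counts per 1000000 of the unscaled library total in every library of all 3 groups. A further 7 reached it throughout shARNT alone, and such genes could pass only by being high there, so the counts below describe the tested genes and not all members.

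The summed level of all 70 genes stood higher in both depletions, but the histone types differed. The sum was 306, 321 and 327 CPM in the shControl libraries, 372, 392 and 386 CPM in shBMAL1 and 377, 362 and 373 CPM in shARNT. Every depleted library stood above every shControl library, and the depletions overlapped. H1 genes together had 51.6, 48.5 and 52.8 CPM in shControl, 84.2, 89.7 and 89.9 CPM in shBMAL1 and 96.4, 93.1 and 98.9 CPM in shARNT, which was 1.72 and 1.89 times the control mean. H4 genes went the other way. They had 30.2, 31.1 and 29.6 CPM in shControl, 23.0, 22.8 and 22.6 CPM in shBMAL1 and 11.9, 11.1 and 13.1 CPM in shARNT. The 3 groups did not overlap for H1 or for H4.

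H3 genes were the least abundant type, with 3.48, 5.16 and 5.51 CPM in shControl and 3.54, 4.30 and 4.65 CPM in shBMAL1, which overlapped, against 11.2, 11.7 and 11 CPM in shARNT. H2A genes stood at 150, 156 and 146 CPM in shBMAL1, above the 119, 125 and 127 CPM of shControl. In shARNT they stood at 119, 118 and 117 CPM, which overlapped shControl. The ratio of these H2A means was 0.955 and became 1.13 when levels were scaled by library size alone, so no direction is given. H2B genes had 101, 111 and 112 CPM in shControl, 111, 120 and 122 CPM in shBMAL1 and 138, 128 and 133 CPM in shARNT, where all libraries were higher than in shControl. No test was run on these sums, and each is dominated by its most abundant genes.

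**Figure D1:**
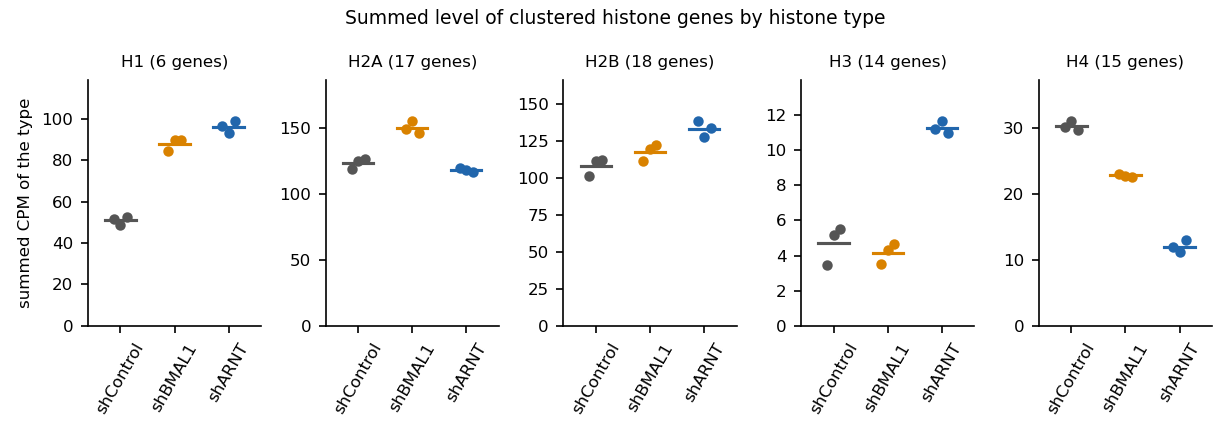
Summed level of all clustered histone genes of each type, in CPM on linear axes that start at 0, for the 3 libraries of shControl (grey), shBMAL1 (orange) and shARNT (blue), with a line at the group mean. H1 stood higher in both depletions, H4 was lower in both and lowest in shARNT, and H3 was higher in shARNT, at 11 to 11.7 CPM against 3.48 to 5.51 CPM in shControl.

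Gene by gene, more of the tested histone genes were called higher than lower in shARNT. In shBMAL1 the share called lower lay near that of all genes, and fewer were called higher. In shARNT against shControl, 20 of 35 were higher (57.1%, against 40.5% of all genes tested) and 5 were lower (14.3%, against 41.3%). The median log2 fold change was 0.72, beside -0.01 over all genes tested. In shBMAL1 against shControl, 13 were lower (37.1%, against 31.5% of all genes) and 5 were higher (14.3%, against 31.9%), with a median of -0.33 beside 0.00. This median was -0.049 with DESeq2 and -0.037 without the filter on low counts. In the direct contrast of shARNT with shBMAL1, which uses no control library, 24 were higher (68.6%, against 40.1%) and 4 were lower (11.4%, against 41.1%), with a median of 0.86. In all, 81.8%, 63.4% and 81.2% of the genes tested were called in the respective comparisons, so a call by itself was common.

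The filter bears on these counts. Among the 24 genes that reached its minimum in all groups, 11 were higher in shARNT (45.8%, against 40.5% of all genes) and 5 lower (20.8%, against 41.3%). The share of rises there lay near that of all genes, and falls were fewer. In shBMAL1, 5 were higher (20.8%, against 31.9%) and 8 lower (33.3%, against 31.5%). In the direct contrast, 14 were higher (58.3%, against 40.1%) and 4 lower (16.7%, against 41.1%). The median log2 fold changes of these 24 genes were 0.34, -0.23 and 0.44. When near-identical gene copies were summed before the fit, a choice made after the data were seen, the median over the tested members in shARNT became 0.49. With halved counts it was 0.46. Scaling by library size alone moved the median of all tested genes from -0.01 to 0.23 in shARNT and from 0.00 to 0.05 in shBMAL1, and directions below are relative to the scaled library sizes.

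**Figure D2:**
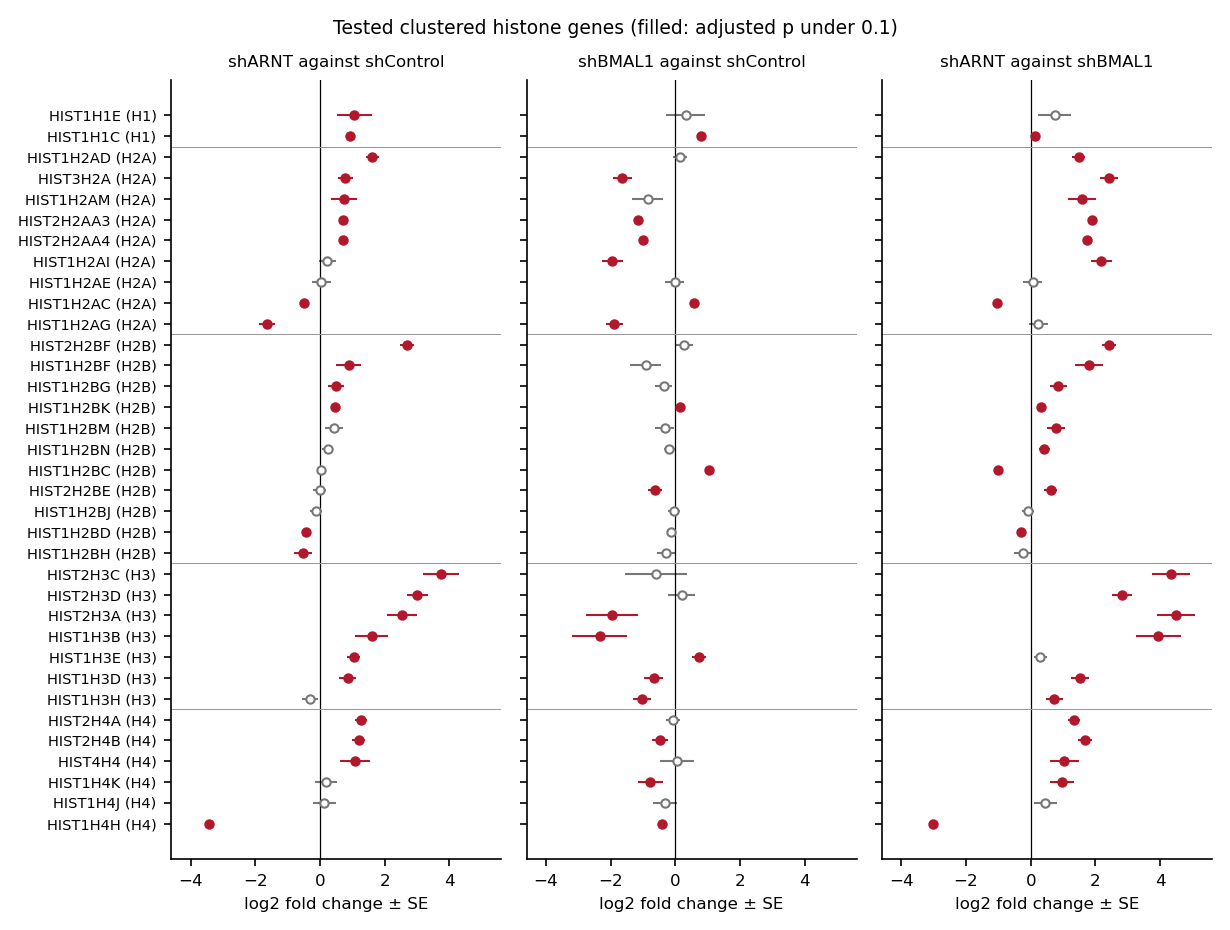
Log2 fold change with its standard error for the 35 tested clustered histone genes, grouped by histone type, in 3 comparisons. Filled red points are genes called at an adjusted p under 0.1, open grey points are not. HIST1H4H stands alone at the left in both comparisons with shARNT, while the H3 genes of the HIST2 cluster stand at the right.

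Linker histone H1 binds the DNA that enters and leaves the nucleosome. HIST1H1C, which encodes histone H1.2, was by far the most abundant of the 6 H1 genes. It had 51.3, 48.2 and 52.5 CPM in the shControl libraries, 83.8, 89.3 and 89.5 CPM in shBMAL1 and 96.0, 92.7 and 98.0 CPM in shARNT. The groups did not overlap, and both depletions were well above the control. The log2 fold changes were 0.92 in shARNT (SE 0.05, adjusted p = 6.68e-13) and 0.79 in shBMAL1 (SE 0.05, adjusted p = 4.12e-11). The direct contrast gave only 0.13 (adjusted p = 0.0203), and this call was lost without shBMAL1 replicate 1 (0.09). HIST1H1E, which encodes H1.4, had 4, 7 and 6 counts in shControl, 12, 3 and 7 in shBMAL1 and 9, 14 and 20 in shARNT. It was called higher in shARNT (1.06, adjusted p = 0.0763) without overlap, but the call was lost when shControl replicate 1 or 3 or shARNT replicate 2 or 3 was left out (0.75 to 1.10). In shBMAL1 HIST1H1E was not called (0.32).

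Histone H2A pairs with H2B in the nucleosome. HIST1H2AC, the most abundant histone gene here, had opposite changes in the depletions. It had 86.2, 90.9 and 93.1 CPM in the shControl libraries, 134, 138 and 128 CPM in shBMAL1 and 64.6, 64.8 and 64.4 CPM in shARNT. No library of a group overlapped another group. The log2 fold change was 0.57 in shBMAL1 (SE 0.04, adjusted p = 1.31e-09) and -0.48 in shARNT (SE 0.05, adjusted p = 6.9e-09), and the direct contrast gave -1.05 (adjusted p = 1.99e-14). The other 16 H2A genes together ran the opposite way, with 33.0, 34.5 and 33.6 CPM in shControl, 15.2, 17 and 17.6 CPM in shBMAL1 and 54.9, 53.5 and 52.6 CPM in shARNT. The share of HIST1H2AC in all member counts was 28.3% in shControl, 34.9% in shBMAL1 and 17.4% in shARNT.

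The gene pair HIST2H2AA3 and HIST2H2AA4, which encodes H2A type 2-A, showed the reverse of HIST1H2AC. HIST2H2AA3 had 13.3, 13.9 and 12.5 CPM in shControl, 5.88, 5.63 and 6.26 CPM in shBMAL1 and 23.2, 21.3 and 20.9 CPM in shARNT. HIST2H2AA4 had 12.9, 12.8 and 13.4 CPM in shControl, 5.70, 7.52 and 6.12 CPM in shBMAL1 and 21.5, 21.6 and 21.0 CPM in shARNT. The groups were fully separate for both genes. Their coding sequences are identical, so reads cannot be assigned to either with certainty and the sum is the firmer value. The summed counts of the pair gave 0.72 in shARNT (adjusted p = 9.4e-10), -1.08 in shBMAL1 (adjusted p = 3.16e-11) and 1.80 in the direct contrast (adjusted p = 9.9e-16).

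The less abundant H2A genes split further. HIST1H2AD rose in shARNT alone of the comparisons with shControl, from 1.02, 1.25 and 1.48 CPM in shControl to 3.61, 3.79 and 4.11 CPM, which is 1.62 on the log2 scale (SE 0.19, adjusted p = 2.21e-07). It stood at 1.26, 1.22 and 1.65 CPM in shBMAL1, which overlapped shControl, and the depletions differed by 1.48 (adjusted p = 5.98e-07). HIST1H2AG fell in both depletions. It had 70, 65 and 62 counts in shControl, 15, 21 and 19 in shBMAL1 and 29, 24 and 22 in shARNT. The log2 fold changes of HIST1H2AG were -1.88 (SE 0.26, adjusted p = 4.19e-06) and -1.65 (SE 0.25, adjusted p = 5.81e-06), and the direct contrast was not called (0.23, adjusted p = 0.473). HIST1H2AI, which shares 96.7% of its coding sequence with HIST1H2AJ, fell in shBMAL1 from 29, 46 and 53 counts to 14, 10 and 10, which is -1.95 on the log2 scale (SE 0.33, adjusted p = 4.02e-05). In shARNT HIST1H2AI had 61, 50 and 69 counts, which overlapped shControl after scaling. Of the 9 tested H2A genes, 5 were higher in shARNT (55.6%, against 40.5% of all genes) and 2 lower (22.2%, against 41.3%). In shBMAL1, 1 was higher (11.1%, against 31.9%) and 5 were lower (55.6%, against 31.5%). The 5 lower in shBMAL1 include HIST2H2AA3 and HIST2H2AA4, whose coding sequences are identical. They also include HIST1H2AI and HIST3H2A, the latter named after its values were seen. Both of these did not reach the filter's minimum throughout shBMAL1 and passed it through the other groups. The 5 higher in shARNT include HIST1H2AM, which passed the filter through shARNT alone and is named after its values were seen.

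**Figure D3:**
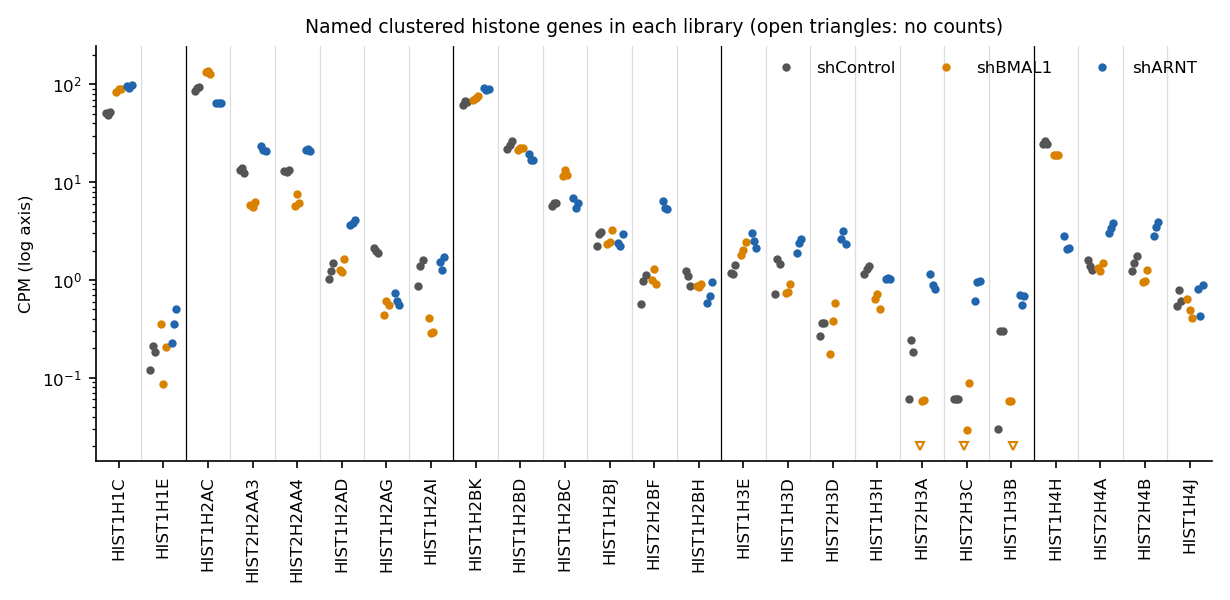
Level of 25 clustered histone genes in each of the 9 libraries, in CPM on a log axis, ordered by histone type and then by mean level. Open triangles at the bottom mark libraries without counts. HIST1H2AC is highest in shBMAL1 and lowest in shARNT, HIST2H2AA3 and HIST2H2AA4 show the opposite order, and HIST1H4H is lower in shARNT than in any other library.

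Histone H2B is the partner of H2A in the nucleosome. Of the 11 tested H2B genes, 5 were not called in shARNT and 8 were not called in shBMAL1. The share called was 54.5% in shARNT, against 81.8% of all genes, and 27.3% in shBMAL1, against 63.4%. HIST1H2BK, the most abundant, had 62.2, 67.6 and 65.9 CPM in shControl, 68.7, 72.9 and 76.1 CPM in shBMAL1 and 92.1, 87.6 and 90.4 CPM in shARNT. The order of the groups was the same as for HIST1H1C, without overlap, but the steps were smaller. The log2 fold changes were 0.47 in shARNT (SE 0.05, adjusted p = 4.19e-08) and 0.15 in shBMAL1 (SE 0.05, adjusted p = 0.0133), and 0.31 in the direct contrast (adjusted p = 1e-05). HIST1H2BD had 22, 24 and 26.2 CPM in shControl and 19.5, 16.8 and 16.8 CPM in shARNT, and was lower there by 0.44 on the log2 scale (SE 0.08, adjusted p = 4.03e-05). In shBMAL1 HIST1H2BD had 21.1, 22.3 and 22.2 CPM and was not called (-0.14), although it was called without shControl replicate 1 (-0.20). Its difference between the depletions was -0.30 (adjusted p = 0.0017), a call lost under scaling by library size alone (-0.11).

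HIST1H2BC differed from these, with a rise in shBMAL1 alone of the comparisons with shControl. It had 5.74, 6.17 and 6.18 CPM in shControl, 11.7, 13.3 and 11.8 CPM in shBMAL1 and 6.84, 5.38 and 6.10 CPM in shARNT. The shBMAL1 libraries stood above all others, and shARNT overlapped shControl. The log2 fold change was 1.02 in shBMAL1 (SE 0.11, adjusted p = 1.18e-07), 0.02 in shARNT (adjusted p = 0.882) and -1.0 between the depletions (adjusted p = 4.18e-08). Under scaling by library size alone HIST1H2BC was called in shARNT as well (0.26). HIST2H2BF showed the largest rise among H2B genes, from 19, 32 and 37 counts in shControl and 34, 45 and 31 in shBMAL1 to 256, 216 and 210 in shARNT. All shARNT libraries were far above the rest, with a log2 fold change of 2.69 against shControl (SE 0.21, adjusted p = 3.79e-10) and 2.42 against shBMAL1 (adjusted p = 1.2e-09).

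HIST1H2BJ had 2.22, 2.98 and 3.09 CPM in shControl, 2.34, 2.47 and 3.26 CPM in shBMAL1 and 2.37, 2.25 and 2.95 CPM in shARNT, all overlapping. It was not called in any comparison, with log2 fold changes of -0.13, -0.04 and -0.09 and a largest standard error of 0.19. HIST1H2BH had 1.23, 1.09 and 0.878 CPM in shControl and 0.581, 0.683 and 0.957 CPM in shARNT, which overlapped. It was called lower in shARNT by 0.53 (adjusted p = 0.0979), and the call did not survive the other scalings, DESeq2 or the loss of any library other than shControl replicate 3 or shARNT replicate 3 (-0.53 to -0.38 among the losses). Of the 11 tested H2B genes, 4 were higher in shARNT (36.4%, against 40.5% of all genes) and 2 lower (18.2%, against 41.3%). The 4 include HIST1H2BF, which passed the filter through shARNT alone. In shBMAL1, 2 were higher (18.2%, against 31.9%) and 1 was lower (9.1%, against 31.5%). The lower gene in shBMAL1 was HIST2H2BE (-0.63, adjusted p = 0.0135). HIST1H2BF and HIST2H2BE were named after their values were seen.

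Histone H3 pairs with H4, and its tail carries many of the known chromatin marks. All of the H3 genes had few counts. Of the 7 tested, HIST2H3A, HIST2H3C, HIST2H3D and HIST1H3B reached the minimum of the filter in shARNT alone, so they were tested because they were high there, and their rises are a description. Of the 3 that reached it in every group, 2 were higher in shARNT, HIST1H3D and HIST1H3E. HIST2H3D, which encodes the variant H3.2, had 9, 12 and 12 counts in shControl, 6, 13 and 20 in shBMAL1 and 103, 124 and 93 in shARNT. The shARNT libraries were well apart from both other groups, with a log2 fold change of 3.00 against shControl (SE 0.32, adjusted p = 3.33e-08) and 2.81 against shBMAL1 (adjusted p = 5.8e-08). HIST2H3A and HIST2H3C encode the same protein and have identical coding sequences. Their summed counts were 4, 10 and 8 in shControl, 0, 3 and 5 in shBMAL1 and 70, 73 and 71 in shARNT. The sum gave 3.00 in shARNT (adjusted p = 9.19e-07), -1.47 in shBMAL1 (adjusted p = 0.0627) and 4.47 between the depletions (adjusted p = 3.84e-08).

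As a single gene, HIST2H3C had only 6 counts over the shControl libraries and 101 over shARNT, a ratio of 14.1 with an exact 95% interval for counting error of 6.24 to 39.2. HIST2H3A had 2, 8 and 6 counts in shControl and 46, 35 and 32 in shARNT (2.53, adjusted p = 5e-05). Its fall in shBMAL1 (-1.96, adjusted p = 0.0457) rested on 4 counts there, a ratio of 0.242 with an interval of 0.0588 to 0.749, and the call was lost without shControl replicate 2 (-1.55) or shBMAL1 replicate 1 (-1.41). HIST1H3B had 1, 10 and 10 counts in shControl, 2, 2 and 0 in shBMAL1 and 28, 22 and 27 in shARNT. It was called in all comparisons, at 1.60 in shARNT (adjusted p = 0.00779), -2.34 in shBMAL1 (adjusted p = 0.024) and 3.94 between the depletions (adjusted p = 3.4e-05), and its shBMAL1 ratio of 0.184 had an interval of 0.046 to 0.546. Its shBMAL1 libraries overlapped shControl.

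The remaining named H3 genes encode H3.1. HIST1H3E rose in both depletions. The shControl libraries had 39, 38 and 47 counts, the shBMAL1 libraries 62, 69 and 83 and the shARNT libraries 120, 100 and 85. After scaling, both depletions stood above shControl and overlapped each other, with log2 fold changes of 0.74 (SE 0.22, adjusted p = 0.00654) and 1.04 (SE 0.21, adjusted p = 0.000157). Their difference for HIST1H3E was not called (0.30, adjusted p = 0.17), but was called without shBMAL1 replicate 3 or shARNT replicate 3 (0.42 in each). HIST1H3D had 0.721, 1.64 and 1.45 CPM in shControl, 0.731, 0.755 and 0.911 CPM in shBMAL1, which overlapped, and 1.87, 2.38 and 2.65 CPM in shARNT. It was higher in shARNT (0.85, adjusted p = 0.00574) and lower in shBMAL1 (-0.67, adjusted p = 0.062), and the fall was not called when any of shControl replicates 2 and 3 and shBMAL1 replicates 1 and 2 was left out (-0.44 to -0.63). HIST1H3H was lower in shBMAL1 (-1.03, adjusted p = 0.00274), with 22, 25 and 17 counts against 38, 43 and 46 in shControl, and was not called in shARNT (-0.31).

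Histone H4 is nearly invariant, and most H4 genes encode the same protein. HIST1H4H gave the largest fall of any tested histone gene in shARNT. Of the 6 tested H4 genes, 3 were higher there, as were 40.5% of all genes. The 3 were HIST2H4A and HIST2H4B, whose coding sequences are identical, and HIST4H4, which passed the filter through shARNT alone. They amount to fewer than 3 independent measurements, and the rise of HIST4H4 is a description. HIST1H4H had 828, 862 and 820 counts in the shControl libraries, 645, 653 and 641 in shBMAL1 and 111, 82 and 84 in shARNT. In CPM these were 24.9, 26.2 and 24.8, then 18.9, 19.0 and 18.8, then 2.80, 2.07 and 2.12. Each group was separate from the others, and shARNT kept less than any other group by far. The log2 fold change of HIST1H4H was -3.44 in shARNT (SE 0.10, adjusted p = 4.07e-17), -0.42 in shBMAL1 (SE 0.08, adjusted p = 0.000157) and -3.02 between the depletions (adjusted p = 4.23e-16). The gene supplied 7.95% of all member counts in shControl and 0.628% in shARNT. The other 14 H4 genes together had 5.32, 4.89 and 4.81 CPM in shControl, 4.18, 3.83 and 3.79 CPM in shBMAL1 and 9.11, 9.08 and 10.9 CPM in shARNT, so without HIST1H4H the H4 sum was higher, not lower, in every shARNT library.

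The H4 genes of HIST2 moved up. HIST2H4A and HIST2H4B are identical in their coding sequences, and together they had 94, 95 and 100 counts in shControl, 78, 77 and 94 in shBMAL1 and 232, 275 and 307 in shARNT. The sum rose by a log2 fold change of 1.23 in shARNT (adjusted p = 1.64e-07) and was 1.5 higher than in shBMAL1 (adjusted p = 1.23e-08). Against shControl it was not called in shBMAL1 (-0.26, adjusted p = 0.175). HIST2H4B taken alone was called lower there (-0.48, adjusted p = 0.0872), without support from HIST2H4A (-0.07), and the call was lost when shControl replicate 2 or 3, shBMAL1 replicate 1 or 2 or shARNT replicate 2 was left out (-0.34 to -0.48). HIST1H4J and its identical copy HIST1H4K, the latter named after its values were seen, had summed counts of 48, 44 and 37 in shControl, 38, 31 and 23 in shBMAL1 and 70, 40 and 63 in shARNT. Their sum was not called in shARNT (0.16, adjusted p = 0.578) or shBMAL1 (-0.53, adjusted p = 0.113), and the depletions differed by 0.70 (adjusted p = 0.0259). HIST1H4J alone was not called in any comparison, except between the depletions without shARNT replicate 2 (0.71).

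Read by cluster, the called HIST2 genes moved up in shARNT and down in shBMAL1. All 11 HIST2 genes together had 32.1, 33.8 and 33.5 CPM in shControl, 16.6, 19.0 and 18.9 CPM in shBMAL1 and 63.9, 62.9 and 62.4 CPM in shARNT. The groups were far apart, at 1.90 times the control mean in shARNT and 0.548 times in shBMAL1. In every group most of this sum came from the identical pair HIST2H2AA3 and HIST2H2AA4, so the ratios largely describe that pair. Of 9 tested HIST2 genes, HIST2H3A, HIST2H3C and HIST2H3D passed the filter through shARNT alone, which fixed that they were higher there. Of the other 6, 5 were higher (83.3%, against 40.5% of all genes) and none lower (against 41.3%) in shARNT. In shBMAL1, 4 were lower (66.7%, against 31.5%) and none higher (against 31.9%). All 6 were higher in shARNT than in shBMAL1 (100%, against 40.1%). The 4 lower in shBMAL1 were the pair HIST2H2AA3 and HIST2H2AA4, HIST2H4B and HIST2H2BE. HIST2H4B was not called there when summed with HIST2H4A (-0.26, adjusted p = 0.175). HIST2H2BE was the gene not called in shARNT (-0.01). The 9 genes span chr1:149754245-149859515 in GRCh37 with the other HIST2 members, and they include 3 pairs of near-identical copies, so they amount to fewer than 9 independent measurements.

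HIST1 was mixed. Of 24 tested HIST1 genes, 10 were higher in shARNT (41.7%, against 40.5% of all genes) and 5 lower (20.8%, against 41.3%). In shBMAL1, 7 were lower (29.2%, against 31.5%) and 5 higher (20.8%, against 31.9%), so the rises in shARNT and the falls in shBMAL1 lay near the background. Their sum was 272, 286 and 292 CPM in shControl, 354, 372 and 366 CPM in shBMAL1 and 310, 296 and 308 CPM in shARNT, a ratio of 1.29 in shBMAL1 and 1.08 in shARNT. The HIST1 members with a gene model lie within chr6:25723625-27861669, and 19 other coding genes of the table lie between them. Of these, 14 were tested, of which 10 were lower and 3 higher in shARNT, where 41.3% of all genes were lower and 40.5% higher. In shBMAL1, 3 were lower and 7 higher, where 31.5% of all genes were lower and 31.9% higher. The falls in shARNT and the rises in shBMAL1 were thus larger shares than among all genes. The median of these neighbours was -0.58 in shARNT and 0.22 in shBMAL1, beside 0.23 and -0.30 for the HIST1 histone genes. By summed level, however, the 19 neighbours together stood higher in shBMAL1, at 1.31 times the control mean, as the HIST1 histone genes did, and lower in shARNT, at 0.777 times. The single tested genes of the small clusters were HIST3H2A and HIST4H4, both named after their values were seen. HIST3H2A was higher in shARNT (0.78, adjusted p = 0.00554) and lower in shBMAL1 (-1.64, adjusted p = 9.68e-05). HIST3H2A did not reach the filter's minimum throughout shBMAL1 and passed it through the other groups. HIST4H4 was higher in shARNT (1.09, adjusted p = 0.0375), a call lost without shControl replicate 3 (0.89). It passed the filter through shARNT alone, so this rise is a description.

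**Figure D4:**
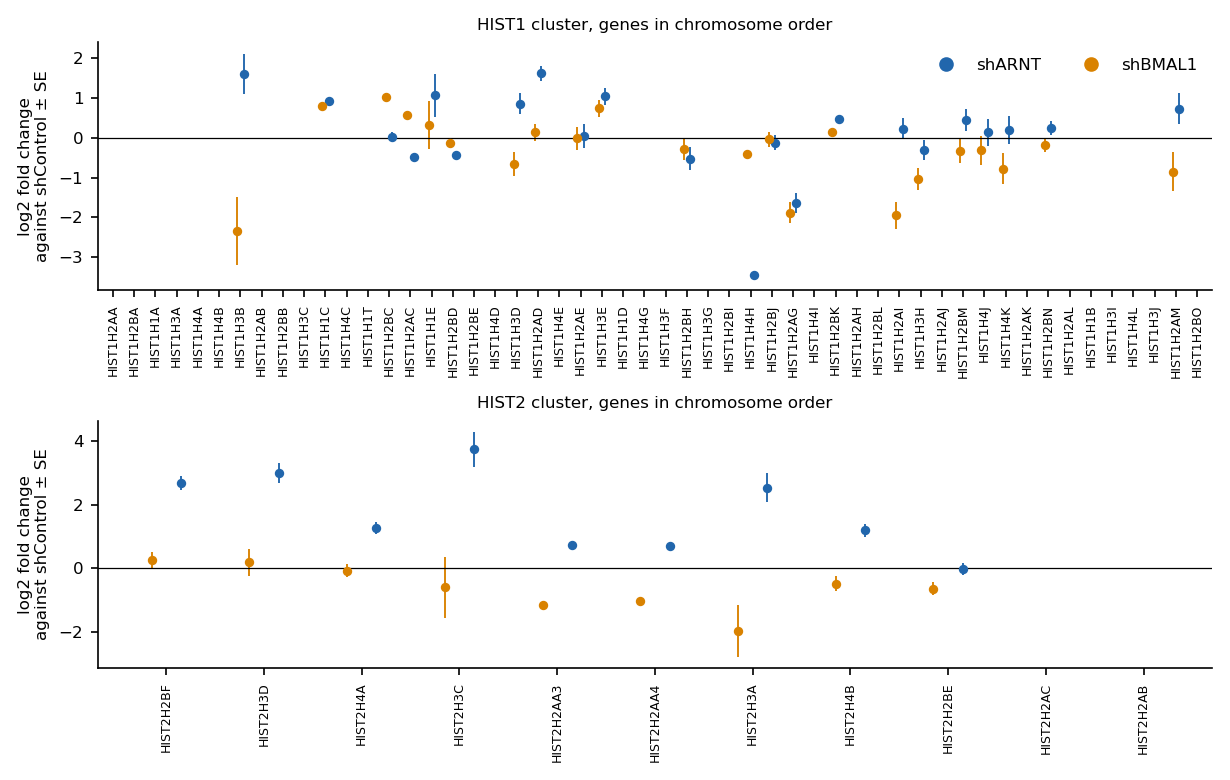
Log2 fold change against shControl with its standard error for shARNT (blue) and shBMAL1 (orange), for the genes of HIST1 (upper plot) and HIST2 (lower plot) in chromosome order, with equal spacing. Genes without points were not tested. Every tested HIST2 gene stands higher in shARNT than in shBMAL1, whereas neighbouring HIST1 genes such as HIST1H2BC and HIST1H2AC, or HIST1H2BJ and HIST1H2AG, differ among themselves.

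Many H2A and H2B genes stand head to head and share the sequence between their starts. In the gene models 12 head-to-head pairs of any histone type have starts under 1 kb apart, and some join an H3 gene to an H2B gene. Both partners were tested in 2 pairs, each of an H2A and an H2B gene. HIST1H2BC and HIST1H2AC start 219 bases apart, and in shBMAL1 both rose (1.02 and 0.57). In shARNT HIST1H2AC fell (-0.48) while HIST1H2BC was not called (0.02). HIST1H2BJ and HIST1H2AG start 248 bases apart and differed in both depletions, since HIST1H2AG fell by 1.65 and 1.88 and HIST1H2BJ was not called.

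Promoter sequences were taken from RefSeq (GRCh38.p14), where 65 of 70 members had an entry of 300 bases, from 250 bases before the annotated start to 50 after it. Motifs were sought on both strands, and capitals mark the CCAAT box, the TATA box (TATAAA) and the octamer (ATTTGCAT). CCAAT was present in 84.6% of member promoters and 35.6% of 27240 others, TATAAA in 66.2% and 11.8%, and ATTTGCAT, the octamer found before many H2B genes, in 40.0% and 1.71%. CACGTG, an E-box, was in none of the member promoters and in 7.45% of the others. ACGTG, which CACGTG contains, was in 13.8% against 21.6%, and GCGTG was in 15.4% against 36.4%. A match describes these letters only and shows no binding. The promoters shown are those of the gene with the largest fall in shARNT, of the H2B gene with the largest rise, and of the most abundant gene, whose window holds the start of the HIST1H2BC pair.
HIST1H4H, chr6:26285485-26285784, minus strand: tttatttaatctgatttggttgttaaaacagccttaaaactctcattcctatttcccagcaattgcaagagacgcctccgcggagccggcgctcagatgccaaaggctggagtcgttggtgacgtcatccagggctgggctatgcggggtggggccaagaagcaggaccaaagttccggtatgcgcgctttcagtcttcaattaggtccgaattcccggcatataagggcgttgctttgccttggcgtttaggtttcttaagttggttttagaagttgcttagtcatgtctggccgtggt
HIST2H2BF, chr1:149812321-149812620, minus strand: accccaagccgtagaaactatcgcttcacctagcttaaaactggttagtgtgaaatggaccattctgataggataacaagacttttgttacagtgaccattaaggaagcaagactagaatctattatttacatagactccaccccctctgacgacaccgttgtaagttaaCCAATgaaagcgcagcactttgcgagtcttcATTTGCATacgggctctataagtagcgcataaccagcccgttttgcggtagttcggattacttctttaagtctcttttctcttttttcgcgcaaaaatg
HIST1H2AC, chr6:26123922-26124221, plus strand: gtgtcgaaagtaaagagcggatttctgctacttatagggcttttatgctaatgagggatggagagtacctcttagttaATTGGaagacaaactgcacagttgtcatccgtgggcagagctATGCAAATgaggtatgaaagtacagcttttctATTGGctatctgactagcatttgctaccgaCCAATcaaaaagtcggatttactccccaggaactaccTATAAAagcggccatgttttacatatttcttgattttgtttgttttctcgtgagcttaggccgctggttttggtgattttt
None of the 6 motifs was in the HIST1H4H window. HIST2H2BF held CCAAT starting 80 bases and ATTTGCAT starting 49 bases before the annotated start. HIST1H2AC held TATAAA 31 bases before the start and CCAAT in 3 places, of which those shown as ATTGG lie on the other strand, as does its octamer.

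The genes were also grouped by features of the annotation that played no part in their choice. Of the 28 tested genes with the stem-loop consensus, 16 were higher in shARNT (57.1%, against 40.5% of all genes) and 4 lower (14.3%, against 41.3%). In shBMAL1, 2 were higher (7.1%, against 31.9%) and 13 lower (46.4%, against 31.5%). Of these 28, 6 passed the filter through shARNT alone, and none of the genes without the consensus did. Among the 18 that reached its minimum in every group, 8 were higher in shARNT (44.4%, near the 40.5% of all genes) and 4 lower (22.2%). In shBMAL1, 2 were higher (11.1%) and 8 lower (44.4%, against 31.5%). These 8 include the identical pair HIST2H2AA3 and HIST2H2AA4, and HIST2H4B, not called when summed with its copy. The medians of the 18 were 0.34 and -0.33. The summed level of all 55 stem-loop genes nevertheless stood higher in shBMAL1, at 1.25 times the control mean, and without HIST1H2AC and HIST1H1C it stood lower, at 0.642 times. Of the 5 tested genes without the consensus, 2 were higher (HIST1H2BK and HIST1H3E) and 1 lower (HIST1H2BD) in shARNT, and 3 were higher (HIST1H2BC, HIST1H2BK and HIST1H3E) and none lower in shBMAL1. Their medians were 0.02 and 0.15. No test of the difference between these groups was run, and 5 genes are few.

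A transcript model that ends over 200 bases after the stop codon, as a polyadenylated form would, existed for 18 members, 15 of them tested. Together these 18 had 166, 178 and 180 CPM in shControl, 204, 212 and 203 CPM in shBMAL1 and 144, 137 and 139 CPM in shARNT. The 49 members with shorter models had 138, 142 and 145 CPM in shControl, 167, 178 and 181 CPM in shBMAL1 and 230, 223 and 231 CPM in shARNT. In shARNT the first sum stood below the control libraries and the second above them, and in shBMAL1 both stood above. The lower first sum rested on HIST1H2AC and HIST1H4H. The other 16 genes had 54.9, 61.1 and 61.6 CPM in shControl and 76.8, 70.3 and 72.2 CPM in shARNT, all higher. Of the 15 tested genes of the first group, 7 were higher and 3 lower in shARNT, the latter being HIST1H2AC, HIST1H2BD and HIST1H4H. HIST1H1C, HIST1H2BK and HIST2H2AA4 belong to the second group. The split follows the gene models, and the identical copies HIST2H2AA3 and HIST2H2AA4 fell on different sides of it. Several of the first group, HIST1H2AC, HIST1H2BC, HIST1H2BD and HIST1H4H among them, overlap other gene models, and no source used here says whether counting respected strand, so reads of such neighbours cannot be told apart.

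The other 35 genes of the family could not be tested. They had at most 84 counts each over the 9 libraries, and 29 had at least 1. No count was found in any library for HIST1H1A, HIST1H2AA, HIST1H2AK, HIST1H2BA, HIST1H4F and HIST1H4L, named here since their values were seen. At this depth, counting error alone allows a level of up to 0.0756 to 0.0911 CPM per library.

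Factors that make and degrade histone mRNA were mostly higher in shARNT. Of 18 such genes, 14 were higher in shARNT (77.8%, against 40.5% of all genes) and 2 lower (11.1%, against 41.3%). In shBMAL1, 7 were higher (38.9%, against 31.9%) and 5 lower (27.8%, against 31.5%), near the background. In the direct contrast, 16 were higher (88.9%, against 40.1%) and 2 lower (11.1%, against 41.1%). The medians were 0.64, -0.02 and 0.63. LSM10 and LSM11 are subunits of the U7 snRNP, which cuts the histone pre-mRNA after the stem-loop. LSM10 rose in both depletions, from 6.76, 7.23 and 7.84 CPM to 11.8, 14.2 and 11.3 CPM in shBMAL1 (0.77, adjusted p = 2.91e-06) and 14, 14.6 and 15.9 CPM in shARNT (1.03, adjusted p = 1.46e-08). LSM11 rose in shARNT (0.70, adjusted p = 0.000579) and fell in shBMAL1 (-1.17, adjusted p = 2.29e-05), with 87, 122 and 106 counts in shControl, 53, 39 and 53 in shBMAL1 and 189, 208 and 216 in shARNT.

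ZNF473, which works with the U7 snRNP, was higher in shARNT (0.63, adjusted p = 8.13e-05) and not called in shBMAL1 (-0.01). CASP8AP2, a further factor of histone gene expression, was higher in shARNT (0.39, adjusted p = 0.00159) and missed the threshold in shBMAL1 (-0.21), where it was called without shControl replicate 3 (-0.28), shBMAL1 replicate 1 (-0.28) or shARNT replicate 2 (-0.21). NPAT, the coactivator of histone gene transcription, was lower in shBMAL1 (-0.23, adjusted p = 0.0298), a call lost without shControl replicate 2 (-0.17). In shARNT NPAT was not called (0.16), but was called without shControl replicate 2 (0.21) or shARNT replicate 3 (0.22) and under scaling by library size alone (0.39). SLBP, the stem-loop binding protein, had 37.2, 38.1 and 33.5 CPM in shControl and 34.8, 36.5 and 37.3 CPM in shARNT and was not called (0.00, adjusted p = 0.98), while scaling by library size alone gave 0.24. In shBMAL1 SLBP was lower by 0.14 (adjusted p = 0.0499), a call lost without shControl replicate 1 (-0.13) or 2 (-0.11) or shBMAL1 replicate 1 (-0.12).

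Genes of DNA replication with a peak in S phase were read beside the histone genes, since both follow the cell cycle. Of 32 tested, SLBP included, 12 were lower and 12 higher in shARNT (37.5% each, against 41.3% and 40.5% of all genes). In shBMAL1, 28 were lower (87.5%, against 31.5%) and 1 higher (3.1%, against 31.9%). Between the depletions, 5 were lower (15.6%, against 41.1%) and 23 higher (71.9%, against 40.1%). Their medians were -0.01, -0.52 and 0.59. The summed level was 1535, 1479 and 1479 CPM in shControl, 1013, 1059 and 993 CPM in shBMAL1 and 1374, 1384 and 1410 CPM in shARNT, where the ratio to shControl of 0.927 became 1.09 under scaling by library size alone. In such bulk RNA a smaller share of cells in S phase and less RNA per cell cannot be told apart, and the part of either in the histone values was not tested.

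Histone genes outside the clusters are transcribed throughout the cell cycle and give polyadenylated mRNAs. Of 10 tested, 5 were higher and 2 lower in shARNT, where 40.5% of all genes were higher and 41.3% lower. In shBMAL1, 3 were higher and 3 lower, where 31.9% of all genes were higher and 31.5% lower. H3F3B, which encodes H3.3, had 166, 182 and 186 CPM in shControl, 161, 172 and 180 CPM in shBMAL1 and 293, 305 and 307 CPM in shARNT. It was higher in shARNT than in shControl (0.76, SE 0.05, adjusted p = 6.49e-12) and than in shBMAL1 (0.82, adjusted p = 2.03e-12). H3F3A, which encodes the same protein, was higher in shBMAL1 (0.32, adjusted p = 0.00857) and not called in shARNT (-0.11). H2AFZ rose in both (0.57 in shARNT and 0.32 in shBMAL1), H2AFX rose in shARNT (0.47) and fell in shBMAL1 (-0.61), and the linker histone H1FX fell in both (-0.60 and -0.34). Of 20 histone chaperones, 9 were higher and 6 lower in shARNT, and 5 were higher and 12 lower in shBMAL1. Their share of rises in shARNT lay near the 40.5% of all genes. The share of falls in shBMAL1 lay above the 31.5% of all genes.

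Abundant RNAs without a poly(A) tail were read as a check on the libraries. Of 17 listed, 4 were tested, RN7SK, RN7SL1, RN7SL2 and SNORA73A, named after their values were seen. The sum of the list was 7.15, 8.57 and 9.96 CPM in shControl, 7.52, 8.30 and 8.64 CPM in shBMAL1 and 8.13, 6.34 and 4.86 CPM in shARNT, with overlap between all groups. Their part in the histone values was not tested. In shARNT RN7SL1 and RN7SL2 were lower (-0.87 and -1.01) and none was higher, and in shBMAL1 RN7SK was lower (-0.54) and none was higher.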

How the data were processed

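Stranded mRNA libraries of 9 A498 cultures were analysed, 3 each of shControl, shBMAL1 and shARNT, grouped by the sample labels. The authors deposited 1 table of expected counts per gene, and a value of 0.05 stood for no reads. The paper's methods describe alignment to GRCh37 and counting with SeqMan NGen and ArrayStar, whereas the submitters' processing notes list hg38, STAR and DESeq2. Of 175 gene pairs whose order differs between these builds, 153 followed GRCh37 in the table. Whether reads or pairs were counted, and whether strand was used, is not given in the sources used here. Expected counts were rounded, 45 names held by more than 1 row were summed, and 28 rows named by a date were kept but not interpreted.

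Counts were fitted with the quasi-likelihood test of edgeR (4.0.16, limma 3.58.1, R 4.3.3) after TMM scaling and filterByExpr (minimum count 10), in 1 fit of all 9 libraries without covariates. P-values were adjusted by Benjamini-Hochberg over 15551 genes, with calls at an adjusted p under 0.1, the false discovery rate used in the study. The script was tested on simulated data first. The comparisons of shARNT and shBMAL1 with shControl share the shControl libraries. P-values measure the spread between the 3 libraries of each group, called biological replicates in the labels. CPM values are counts per 1000000 of the scaled library size. Totals of 35269851 to 36099075 counts gave a limit of 3 counts for a gene without reads, and this limit and the exact 95% intervals cover counting error only. Libraries of a group differed by more than independent counts would, with a chi-square per gene of 2.12 to 2.46 at mean counts of 10 to 50. The limit and the intervals are therefore likely too narrow. Alternatives were RLE factors, library size alone, DESeq2 (1.42.0), no filter, only the 6 libraries compared, a replicate block, halved counts, an adjusted p under 0.05, a fold change of 1.5 (glmTreat) and each library left out. A restriction to members with whole numbers in all 9 libraries left every member in. Summing near-identical copies was added after the data were seen.

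Named members were the 4 tested genes of each type with the highest mean CPM and, in each of the 3 contrasts, the 3 called members with the largest fall and the 3 with the largest rise. Of the factors for histone mRNA, NPAT, CASP8AP2, SLBP, LSM10, LSM11 and ZNF473 were named, and of histone genes outside the clusters H1FX, H2AFX, H2AFZ, H3F3A and H3F3B. H1F0 was not analysed here. The members and lists were chosen with earlier results of these data known. Gene models came from GENCODE v44 mapped to GRCh37, where 67 of 70 members matched, and promoters from RefSeq (GRCh38.p14), where 65 matched. No set test was run.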

Additional observations from a re-analysis of the deposited data

Results flagged for a closer look

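For 7 named histone genes the called changes against shControl had opposite directions in the depletions, and the depletions also differed from each other with a call (edgeR quasi-likelihood test). Taking shARNT minus shBMAL1, the log2 difference was -1.05 for HIST1H2AC, the single negative value of the 7. It was 1.88 for HIST2H2AA3, 1.73 for HIST2H2AA4, 1.52 for HIST1H3D, 1.67 for HIST2H4B, 3.94 for HIST1H3B and 4.49 for HIST2H3A, all higher in shARNT. HIST1H3B and HIST2H3A passed the filter through shARNT alone, so their rises there and their direct differences are a description. The falls of HIST1H3D, HIST2H4B and HIST2H3A in shBMAL1 were lost when single libraries were left out, as given with each gene. Summed with its identical copy HIST2H4A, HIST2H4B was not called in shBMAL1 (-0.26, adjusted p = 0.175). HIST2H2AA3 and HIST2H2AA4 have identical coding sequences and may be 1 measurement. Groups of 3 libraries are too small for a check of single libraries that stand apart.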

How the results depend on the processing

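The counts of called histone genes stayed within 1.5 times their values under 115 of 120 recomputations, and no tested histone gene changed direction with a call. Of the 120, 6 kept only members with whole numbers in all 9 libraries. Every member had them, so these 6 could not differ. Against a fold change of 1.5 (glmTreat) the counts were smaller, with 2 lower and 12 higher in shARNT, 5 lower and 2 higher in shBMAL1, and 15 higher in the direct contrast, and ARNT in shBMAL1 (-0.65) and ARNTL in shARNT (0.55) were no longer called. The median in shARNT against shControl was 0.95 with library size alone, 0.59 with only the 6 libraries compared, 0.46 with halved counts and 0.49 with near-identical copies summed. The median in shBMAL1 was -0.049 with DESeq2 and -0.037 without a filter, which take in more genes, and the direct median was 1.05 with library size alone. SLBP in shARNT turned to 0.24 with library size alone. The other causes were not tested. With library size alone, 7828 of 12939 called genes were higher in shARNT, against 6305 of 12723 after TMM scaling.

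Leaving out each library in turn gave 4 to 5 lower and 17 to 20 higher genes in shARNT, 10 to 14 lower and 5 to 5 higher in shBMAL1, and 4 to 4 lower and 23 to 26 higher in the direct contrast. The medians ran from 0.67 to 0.72, from -0.41 to -0.29 and from 0.71 to 1.15, the last without shBMAL1 replicate 1. Same-numbered libraries did not deviate together (correlations of -0.041 to 0.075), so the numbers do not pair the samples. With a replicate block HIST1H1E (1.05), HIST1H2AM (0.73) and HIST1H2BH (-0.53) lost their calls in shARNT, and no count moved by over 1.5 times. Depth leaves 35 of the 70 genes untested, 4 of 6 for H1, 8 of 17 for H2A, 7 of 18 for H2B, 7 of 14 for H3 and 9 of 15 for H4.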
